A study of Mus musculus with 11 samples.

Results

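The 2 single drugs of a tumour study in mice were compared directly with each other: palbociclib, an oral inhibitor of the cell cycle kinases CDK4 and CDK6, against OPG-Fc, a recombinant decoy receptor for the cytokine RANKL. The comparison took 6 of the 11 tumour libraries, 3 per drug, and every gene with an FPKM (fragments per kilobase of transcript, scaled to the mapped fragments of the library) of at least 1 in at least 2 of those 6 libraries. These were 12737 of the 17181 genes in the deposited table. The tumours arose from the 4T1 line of mouse mammary carcinoma, a widely used stand-in for triple-negative disease, injected with matrigel under the skin of both flanks. The hosts were NSG mice, which lack T, B and NK cells, although the title of the study calls the tumours syngeneic. Treatment started at a tumour volume of about 100 mm3 and lasted 12 days. One group received palbociclib at 30 mg/kg per day by mouth, and the other received OPG-Fc at 10 mg/kg into the peritoneum 3 times a week. Beside them stood 2 vehicle tumours (sodium lactate with corn oil and DMSO) and 3 tumours given both drugs, whose values are quoted for reference and entered alternative fits only. Animal age and sex, and which tumours came from 1 animal, are not given in the sources used here, so p-values reflect the variation among these tumours alone, which may be partly technical.

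CDK4 and CDK6, bound to D-type cyclins, phosphorylate the retinoblastoma protein RB and release E2F factors, which turn on genes of DNA synthesis. Palbociclib blocks that step and holds RB-competent cells in G1. RANKL (gene Tnfsf11) activates NF-kB through its receptor RANK (Tnfrsf11a), is required for osteoclasts and drives mammary progenitor growth. Osteoprotegerin (Tnfrsf11b) is the natural decoy that OPG-Fc copies.

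The FPKM values of the 6 libraries summed to between 576699 and 754480, and read depth is unknown because the values carry 2 decimals and no counts. Epcam, an epithelial adhesion molecule, lay between 336 and 604 FPKM in all 6 libraries, so tumour epithelium was present in each. It was 11.7 in vehicle replicate 2, which stood apart from the other libraries and is quoted only with that limit. The 3 genes checked for neighbouring tissue differed by library. Krt10, a keratin of stratified skin, had FPKM values of 113, 1.74 and 73.4 in palbociclib replicates 1, 2 and 3 and of 1.43, 0.97 and 2.68 in the OPG-Fc replicates, the order used throughout. Adipoq, the fat hormone adiponectin, was at 4.21, 2.72 and 2.21 with palbociclib and at 75.02, 113 and 34.1 with OPG-Fc. Cd79a, a part of the B cell receptor, was at 0.25, 0.16 and 0.10 with palbociclib and at 0.64, 73.6 and 0.50 with OPG-Fc, and was too low to be tested. Skin transcripts were thus high in palbociclib replicates 1 and 3, fat transcripts in all 3 OPG-Fc libraries, and lymphoid transcripts in OPG-Fc replicate 2. At the FPKM limit, Abhd15 was among 12 genes just inside with a second-highest value of 1 in the 6 libraries, and 11 genes lay just outside at 0.99.

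Most genes that differed were lower in palbociclib tumours than in OPG-Fc tumours, among them genes of stroma, vessels, macrophages and fat. In limma's test on log2(FPKM + 1), 1443 genes (11.3%) were called at a Benjamini-Hochberg adjusted p under 0.05. Of these, 1213 (9.52% of the genes tested) were lower with palbociclib and 230 (1.81%) were higher, so 84.1% of calls were lower. The gene lists described below held 224 of the called genes, and 1219 were in no list. Quantile normalization gave 393 higher and 838 lower, a share of 68.1%, and a correction for transcript length and GC content gave 824 and 1121, a share of 57.6%. The median log2 difference over all genes tested, palbociclib minus OPG-Fc, was -0.04, with quartiles of -0.24 and 0.14. All 3 libraries of a group lay above or below all 3 of the other for 1461 genes higher with palbociclib (11.5%) and 2721 lower (21.4%). The first principal component held 61.4% of the variance and separated the drugs, with palbociclib at -35.8, -17.1 and -39.2 and OPG-Fc at 30.5, 39.2 and 22.3. Higher calls lay more often in short transcripts: over 4 equal classes of genes from short to long they numbered 114, 65, 34 and 13, against 291, 317, 298 and 296 lower calls. Leaving out palbociclib replicate 1, 2 or 3 gave 132, 394 and 83 genes higher, and leaving out OPG-Fc replicate 1, 2 or 3 gave 83, 118 and 110. Lower calls then numbered 808 (without palbociclib replicate 3) to 1078. A fit of all 11 libraries, whose spread included vehicle replicate 2, called 1 gene higher and 131 lower, and the same fit without that library called 153 and 1194. Among lists described below, the fit of all 11 called 9 endothelial, 7 fibroblast, 1 macrophage, 0 adipocyte and 0 mitotic genes lower, and 0 epithelial, interferon, hypoxia, ribosomal or epidermis genes higher.

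**Figure D1:**
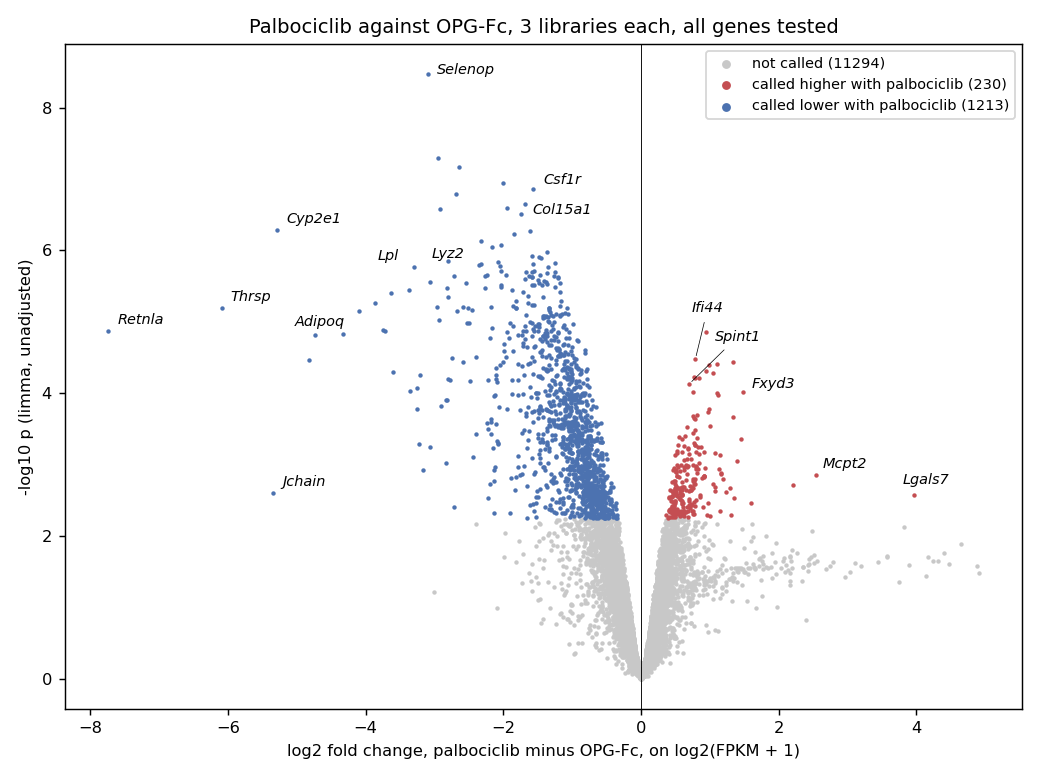
Each point is 1 of the 12737 genes tested, with the log2 difference on log2(FPKM + 1) (palbociclib minus OPG-Fc, 3 libraries each) on the horizontal axis and -log10 of the unadjusted limma p on the vertical axis. Blue points are the 1213 genes called lower with palbociclib, red the 230 called higher and grey the genes not called, and most large called differences lie on the left.

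Differences were larger on the lower side. A log2 difference of at most -2 was seen for 100 genes, of which 97 were called. On the other side 53 genes reached 2, and 3 were called. Palbociclib replicate 2 was the lowest of the 3 palbociclib libraries for all 53, and for 39 of them it was no higher than the highest OPG-Fc library. Among the genes with the smallest p, 3 are given here, chosen after their values were seen. Selenop, a secreted selenium carrier, was at 61.1, 53.5 and 49.8 FPKM with palbociclib and at 506, 472 and 454.0 with OPG-Fc, a log2 difference of -3.10 ± 0.11 (SE, limma adjusted p = 4.33e-05). Fcna, a ficolin that starts the lectin arm of complement, was at 3.30, 2.43 and 2.18 against 22.4, 21.7 and 20.5 (-2.64 ± 0.14, adjusted p = 0.000292). Pltp, which transfers phospholipids between lipoproteins, was at 29.8, 18.5 and 18.5 against 181, 173 and 159.6 (-2.92 ± 0.18, adjusted p = 0.000366). The groups were far apart for each of these 3 genes, and vehicle replicate 1 lay near the palbociclib tumours at 79.3, 4.68 and 24.8 FPKM. Vehicle replicate 2, which stood apart, was at 1043, 34.2 and 195.7, above every OPG-Fc library.

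**Figure D2:**
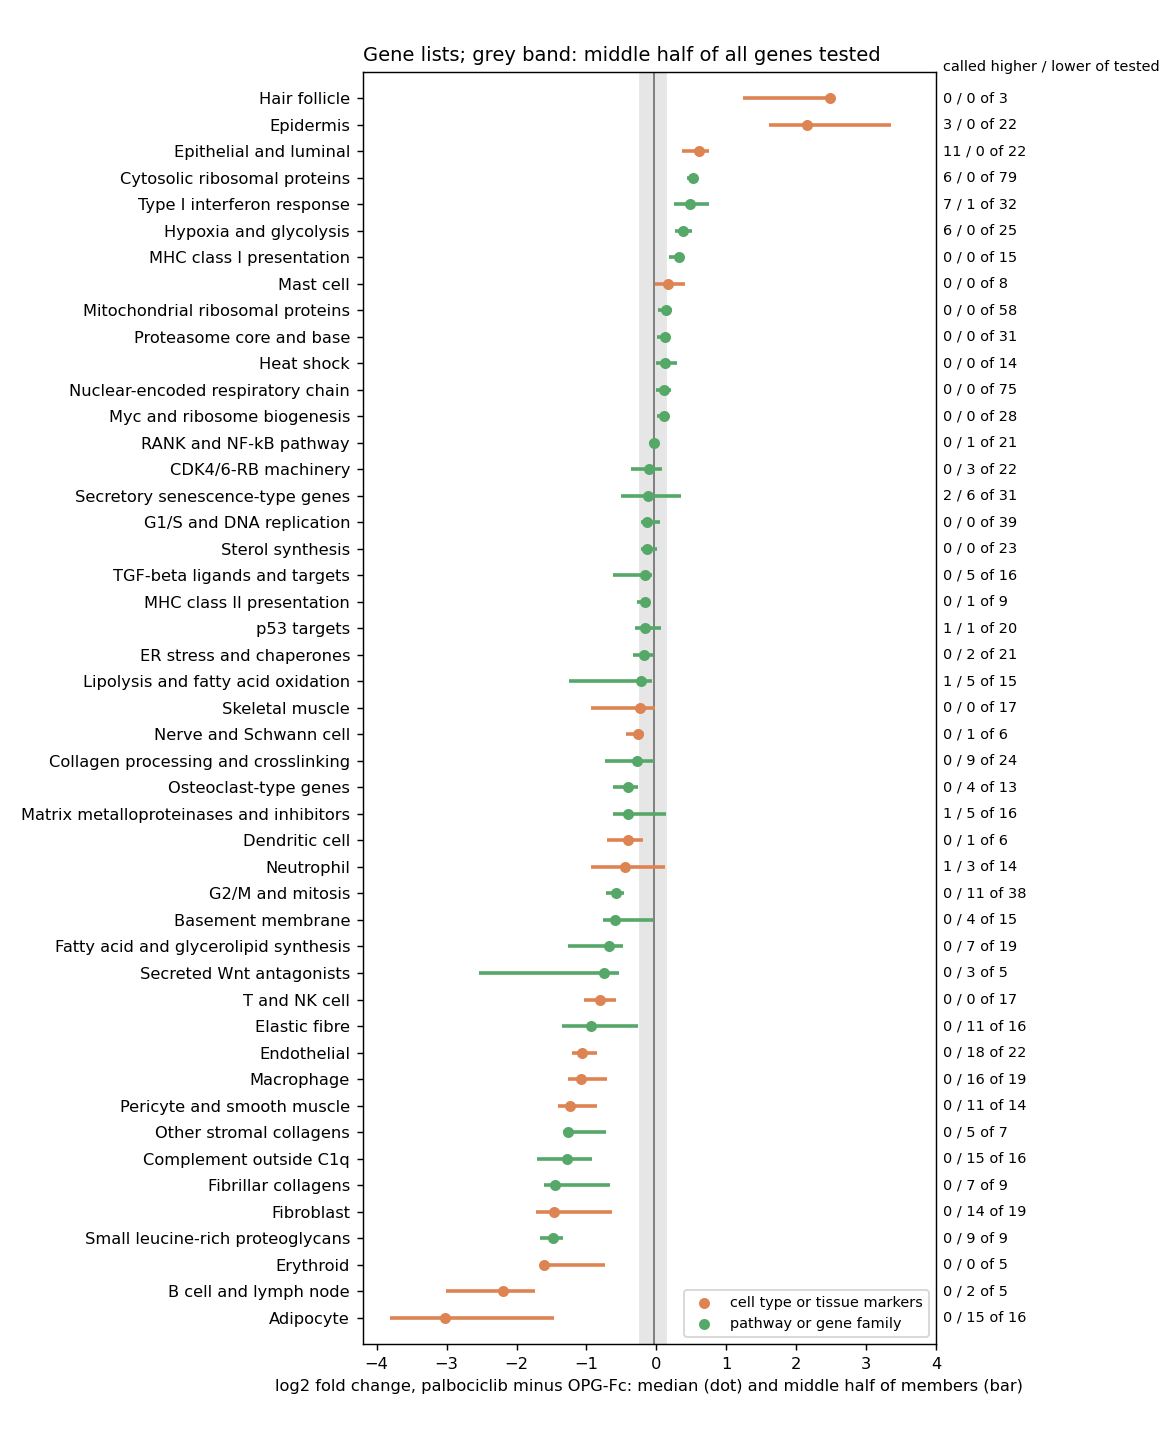
For each of 47 gene lists the dot is the median log2 difference of its tested members (palbociclib minus OPG-Fc, horizontal axis) and the bar their interquartile range, with members called higher and lower of those tested at the right. The grey band is the interquartile range of all genes tested, -0.24 to 0.14, and the lists furthest below it are fat, lymphoid, red cell and stromal genes.

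Transcripts of the targets of the 2 drugs were not called. Cdk4 was at 324, 414 and 355 FPKM with palbociclib and at 259, 329.6 and 313 with OPG-Fc (log2 difference 0.28 ± 0.14, adjusted p = 0.251). Ccnd1, cyclin D1, was at 276, 276 and 309 against 269, 226 and 297 (0.13 ± 0.13, adjusted p = 0.578). Rb1, the substrate of the kinases, was at 3.67, 3.16 and 5.57 against 6.48, 5.04 and 5.31 (-0.39 ± 0.19, adjusted p = 0.24). The libraries of the 2 drugs overlapped for each of these 3 genes. Over all genes tested 9.52% were called lower with palbociclib and 1.81% higher. The median difference of 22 genes of the CDK4/6-RB machinery was -0.11, and 3 were called, all lower with palbociclib. They were Ccnd2, encoding cyclin D2 (-0.88 ± 0.13, adjusted p = 0.00527), and the CDK inhibitors Cdkn2d (-0.55 ± 0.13, adjusted p = 0.0273) and Cdkn1c (-0.71 ± 0.16, adjusted p = 0.0281). Cdkn1a, the p21 inhibitor, was at 31.1, 33.4 and 27.6 against 34.4, 23.99 and 29.9 and was not called (adjusted p = 0.802). Leaving out palbociclib replicate 1 or 3, or OPG-Fc replicate 1, gave 1 lower call in this list.

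On the RANK side, transcripts of ligand and receptor were scarce. Tnfsf11 (RANKL) was at 1.34, 0.87 and 1.45 FPKM with palbociclib and at 1.27, 0.93 and 1.46 with OPG-Fc, with overlapping groups and a difference of 0.00 ± 0.18 (adjusted p = 0.994). Tnfrsf11a (RANK) was at 0.91, 1.08 and 0.95 against 2.22, 1.49 and 1.47, which did not overlap but missed the threshold (-0.45 ± 0.17, adjusted p = 0.13). Tnfrsf11b, the tumours' own osteoprotegerin, was at 5.93, 2.91 and 4.20 against 3.15, 2.23 and 2.21 (0.57 ± 0.22, adjusted p = 0.148). Of 21 genes of the RANK and NF-kB pathway 1 was called: Birc3, an NF-kB target that limits cell death, at 12.8, 13.4 and 13.3 against 20.1, 19.5 and 18.2 (-0.51 ± 0.10, adjusted p = 0.0124). Over all genes tested 9.52% were called lower. The Birc3 call was lost in the fits of 11, 10 and 9 libraries. In this list 1 gene was called higher under quantile normalization, with array weights and without palbociclib replicate 2. The list's median was -0.04, the same as over all genes, and turned to 0.01 under median-of-ratios scaling, 0.02 under quantile normalization and 0.07 with the length and GC correction. Among 13 genes of the osteoclast type, 4 were lower with palbociclib: the collagen-digesting protease Ctsk, the myeloid receptor Trem2, its adaptor Tyrobp and Ostm1. Ctsk was at 48.0, 38.1 and 43.8 against 65.0, 72.9 and 87.0 (-0.77 ± 0.14, adjusted p = 0.00997). Trem2 is also a macrophage marker, and these bulk values cannot tell fewer cells of a type from less RNA per cell, here or below. Leaving out any 1 library other than palbociclib replicate 2 gave 2 lower calls in the osteoclast-type list.

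Genes of mitosis were lower with palbociclib than with OPG-Fc, while genes of DNA replication were not called. All 38 G2/M genes had a negative difference, with a median of -0.57, and 11 were called lower. The promoters of 3 of these are shown because a short element, TTTGAA (the cell cycle genes homology region), is known in promoters of genes that peak in G2/M. Each sequence is the 150 bases before the start of the gene from RefSeq (GRCm38.p6, 5′ to 3′ on the gene's strand), with the motif in capitals on whichever strand it lies. They are Cdc20 at chr4:118437344-118437493 (minus strand), Prc1 at chr7:80294326-80294475 (plus) and Mki67 at chr7:135716380-135716529 (minus).
Cdc20: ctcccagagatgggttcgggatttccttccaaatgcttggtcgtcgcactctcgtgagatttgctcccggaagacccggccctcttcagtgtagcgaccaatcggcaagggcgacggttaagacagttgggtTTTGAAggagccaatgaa
Prc1: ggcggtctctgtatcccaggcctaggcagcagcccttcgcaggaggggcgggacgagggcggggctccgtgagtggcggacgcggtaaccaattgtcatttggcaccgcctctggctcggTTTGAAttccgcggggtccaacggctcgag
Mki67: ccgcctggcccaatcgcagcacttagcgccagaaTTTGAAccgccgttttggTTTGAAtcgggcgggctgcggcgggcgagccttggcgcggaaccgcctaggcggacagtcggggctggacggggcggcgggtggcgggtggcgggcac

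The motif was found in this window for 9 of 32 G2/M genes with a promoter in the table (28.1%) and for 685 of 10134 genes tested (6.76%). Among called G2/M genes with a promoter it was found for 4 of 9, and the 3 shown were taken from those 4. A match is a description of letters, not a measured binding site. Cdc20, the activator of the anaphase-promoting complex, was at 29.9, 30.0 and 36.9 FPKM with palbociclib and at 46.6, 62.9 and 52.99 with OPG-Fc (-0.73 ± 0.14, adjusted p = 0.0144). Prc1, which bundles microtubules of the central spindle, was at 19.4, 17.8 and 29.4 against 38.1, 40.0 and 36.0 (-0.78 ± 0.18, adjusted p = 0.0282). Mki67, the proliferation marker Ki-67, was at 16.4, 13.4 and 28.0 against 38.1, 40.3 and 34.2 (-0.99 ± 0.24, adjusted p = 0.0334). For all 3 genes the groups did not overlap, and palbociclib replicate 3 was the highest of its group. The other called members were Ccnb1 (cyclin B1), Cenpf, Foxm1, Plk1, Kif20a, Racgap1, Pttg1 and Kif2c, with differences from -0.77 for Kif20a to -0.61 for Pttg1 and -0.94 for Cenpf. The number called depended on single libraries: it was 29 without palbociclib replicate 3, and 0 without palbociclib replicate 1, 2 without replicate 2, and 3, 1 and 2 without OPG-Fc replicates 1, 2 and 3. It was 2 with no filter on low values and 2 with OPG-Fc replicates 2 and 3 averaged. Mean log2 levels of the 38 genes were 4.21, 4.25 and 4.80 with palbociclib, 4.90, 5.14 and 4.93 with OPG-Fc, and 5.28, 4.88 and 4.86 with both drugs. Vehicle replicate 1 was at 4.71, between palbociclib replicates 2 and 3. Of 39 G1/S and replication genes none was called by limma, 2 had an unadjusted p under 0.05, and the median was -0.13. Mcm5, a subunit of the replicative helicase, was at 34.3, 35.2 and 38.8 against 41.3, 50.7 and 44.2 without overlap (-0.32 ± 0.11, adjusted p = 0.112), and E2f1 was at 13.1, 15.0 and 17.3 against 13.8, 15.0 and 15.4.

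Collagens and other matrix genes were lower with palbociclib. Of 9 fibrillar collagen genes tested 7 were called lower, with a median difference of -1.45. Col3a1, the type III collagen of loose connective tissue, was at 182, 174 and 131 FPKM with palbociclib and at 983, 614 and 779 with OPG-Fc (-2.27 ± 0.20, adjusted p = 0.00068). Col1a1, a chain of the main collagen of stroma, was at 193, 176 and 145 against 586, 425 and 565 (-1.61 ± 0.16, adjusted p = 0.00113). OPG-Fc replicate 1 was the highest for both genes, and palbociclib replicate 3 the lowest, with no overlap between the groups. Col11a2, a cartilage collagen, was the member with a positive difference and was not called (0.33 ± 0.22, adjusted p = 0.381). Of 7 other stromal collagens 5 were lower, among them Col6a2 of the microfibrils around cells at 43.7, 37.9 and 41.1 against 96.4, 93.8 and 109 (-1.27 ± 0.11, adjusted p = 0.000666).

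The small leucine-rich proteoglycans, which bind collagen fibrils and space them, were all lower: 9 of 9, with a median of -1.48. Dcn (decorin) was at 62.6, 41.5 and 44.2 against 189.9, 131 and 136 (-1.61 ± 0.20, adjusted p = 0.00212). Of 16 elastic fibre genes 11 were lower, led by fibrillin 1, Fbn1, at 7.45, 4.50 and 6.05 against 27.0, 21.8 and 21.7 (-1.82 ± 0.17, adjusted p = 0.000924). Basement membrane genes split: 4 of 15 were lower. They were Col15a1, the laminin chain Lama4 and the nidogens Nid1 and Nid2, which link laminin to collagen IV. Col15a1 was at 10.7, 9.17 and 9.46 against 38.6, 32.9 and 33.7 (-1.74 ± 0.11, adjusted p = 0.000392). Of 24 genes of collagen processing 9 were lower, including the crosslinking oxidases Lox, Loxl1 and Loxl2 and the collagen chaperone Serpinh1. Lox was at 15.3, 17.8 and 15.3 against 73.0, 31.7 and 59.5 (-1.62 ± 0.27, adjusted p = 0.00773), whereas the prolyl hydroxylase P4ha1 was at 61.4, 63.8 and 59.0 against 55.8, 46.9 and 56.4 (adjusted p = 0.249). Leaving out 1 library gave 6 to 9 lower calls in the collagen processing list.

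Proteases and signals of the same stroma followed in part. Of 16 metalloproteinases and inhibitors 5 were lower: Mmp2, Mmp19, Mmp23 and the inhibitors Timp1 and Timp3. Mmp2, a gelatinase, was at 30.8, 23.9 and 27.9 FPKM with palbociclib and at 82.6, 73.9 and 96.4 with OPG-Fc (-1.58 ± 0.14, adjusted p = 0.000666). Mmp10, stromelysin 2, was higher with palbociclib, at 91.3, 92.3 and 94.9 against 52.4, 37.6 and 39.9 (1.10 ± 0.13, adjusted p = 0.00212). Lower calls in this list numbered 3 without palbociclib replicate 3, OPG-Fc replicate 1 or OPG-Fc replicate 3. The Mmp10 call was lost in the fits of 11, 10 and 9 libraries. Of 16 TGF-beta ligands and targets 5 were lower, among them Postn, Tgfb1, Tgfb2 and Tgfbr2, and the median of -0.16 was close to that of all genes. Tgfb1 was at 43.9, 44.1 and 40.6 against 67.4, 64.4 and 61.5 (-0.58 ± 0.09, adjusted p = 0.00658). The TGF-beta list had 3 lower calls without OPG-Fc replicate 1. Of 5 secreted Wnt antagonists and related genes Sfrp2, Sfrp4 and Dact1 were lower. Sfrp2 was at 4.80, 4.94 and 4.69 against 48.5, 25.9 and 28.2 (-2.54 ± 0.22, adjusted p = 0.000666).

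Marker genes of fibroblasts, the cells that make this matrix, were lower in 14 of 19 cases, with a median of -1.46. Pi16, which marks fibroblasts of the adventitia, was at 5.83, 6.41 and 3.64 against 40.0, 54.4 and 34.7 (-2.81 ± 0.22, adjusted p = 0.000666). Fap, fibroblast activation protein, was at 2.03, 2.63 and 2.19 against 9.35, 8.68 and 7.74 (-1.55 ± 0.13, adjusted p = 0.000666). Twist1, a factor that mesenchymal-like tumour cells also express, was at 19.9, 24.2 and 18.04 against 21.5, 15.7 and 22.5 and did not differ beyond its spread (0.06 ± 0.17, adjusted p = 0.849). Fibroblast marker levels on the log2 scale lay between 3.89 and 4.07 with palbociclib and between 5.30 and 5.39 with OPG-Fc, and 4.54 in vehicle replicate 1. With 1 library left out, 13 or 14 of the 19 were called.

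Vessel genes were lower with palbociclib as well. All 22 endothelial markers had a negative difference, with a median of -1.06, and 18 were called. Pecam1 (CD31) was at 18.5, 19.4 and 17.4 FPKM with palbociclib and at 46.3, 40.0 and 42.9 with OPG-Fc (-1.18 ± 0.10, adjusted p = 0.000666). Cdh5, the cadherin of endothelial junctions, was at 9.16, 8.12 and 9.08 against 30.7, 21.0 and 23.4 (-1.40 ± 0.15, adjusted p = 0.00125). The VEGF receptor Kdr was at 1.80, 1.64 and 1.95 against 7.61, 5.63 and 5.56 (-1.37 ± 0.15, adjusted p = 0.00142). Each palbociclib library lay well below each OPG-Fc library for these 3 genes, and 17 to 19 endothelial calls were made with any 1 library left out. Of 14 pericyte and smooth muscle markers 11 were lower, with a median of -1.24. Rgs5, a pericyte signalling regulator, was at 9.25, 10.5 and 10.6 against 37.6, 24.4 and 36.5 (-1.58 ± 0.17, adjusted p = 0.00127), and Acta2, smooth muscle actin, at 51.9, 74.1 and 49.3 against 161, 182 and 124 (-1.40 ± 0.19, adjusted p = 0.00358). Leaving out 1 library gave 7 to 12 pericyte calls, with 7 without OPG-Fc replicate 1.

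Macrophage markers were lower with palbociclib in 16 of 19 cases, and all 19 differences were negative, with a median of -1.08. Csf1r, the M-CSF receptor, was at 26.8, 28.3 and 28.7 FPKM with palbociclib and at 88.3, 84.4 and 81.5 with OPG-Fc (-1.57 ± 0.09, adjusted p = 0.000347). Lyz2, myeloid lysozyme, was at 434, 491 and 368 against 2799, 2038 and 1869 (-2.36 ± 0.19, adjusted p = 0.000666). Cd163, a haemoglobin scavenger receptor of resident-type macrophages, was at 9.51, 1.98 and 1.99 against 47.8, 34.8 and 57.5 (-3.36 ± 0.46, adjusted p = 0.00358). Within each drug the 3 libraries were close for Csf1r, while palbociclib replicate 1 was the highest of its group for Cd163. Retnla, made by alternatively activated macrophages and by fat, was at 0.38, 0.53 and 0.63 with palbociclib and at 262, 1394 and 91.7 with OPG-Fc, and was called lower (adjusted p = 0.00123). With both drugs Csf1r was at 51.2, 36.2 and 40.4 and Lyz2 at 1527, 896 and 2195, between the single drugs for Csf1r in every tumour. With any 1 library left out, 11 to 16 macrophage calls were made.

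Of 16 complement genes outside C1q 15 were lower, with a median of -1.28. C3, the central component, was at 73.1, 54.0 and 70.7 against 169, 252 and 121 (-1.39 ± 0.25, adjusted p = 0.0111). Masp1, a protease of the lectin pathway, was the exception, at 8.11, 7.16 and 7.46 against 6.16, 3.62 and 4.35 (0.61 ± 0.17, adjusted p = 0.0617). The C1q chains, listed with macrophages, were lower too: C1qc was at 198, 241 and 196 against 418, 492 and 473 (-1.12 ± 0.12, adjusted p = 0.00147). Complement genes are expressed by macrophages, fibroblasts and fat, whose markers moved with them, and the part of each in these values was not tested.

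Neutrophil genes did not move together. Ngp and Camp, granule proteins of immature neutrophils, were lower with palbociclib: Ngp was at 0.12, 0.35 and 0.79 against 16.2, 10.1 and 4.13 (-2.83 ± 0.41, adjusted p = 0.00405). Csf3r, the G-CSF receptor, was at 10.7, 10.4 and 12.6 against 29.7, 18.6 and 24.96 (-1.04 ± 0.17, adjusted p = 0.0075). Lcn2, lipocalin 2, which tumour epithelium also secretes, was higher, at 949, 1082 and 894 against 540.3, 389 and 446 (1.10 ± 0.15, adjusted p = 0.00369). Of 9 MHC class II presentation genes 1 was lower, Ctss, a lysosomal protease, at 299.5, 317 and 264 against 604, 634 and 687 (-1.13 ± 0.12, adjusted p = 0.00119), whereas Cd74, the invariant chain, was at 1399.81, 1636 and 1187 against 1117, 2224 and 1950.0 (adjusted p = 0.554). The share called lower over all genes tested was 9.52%. The median of the MHC class II list was -0.16, and leaving out 1 library moved it between -0.55 and 0.02.

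**Figure D3:**
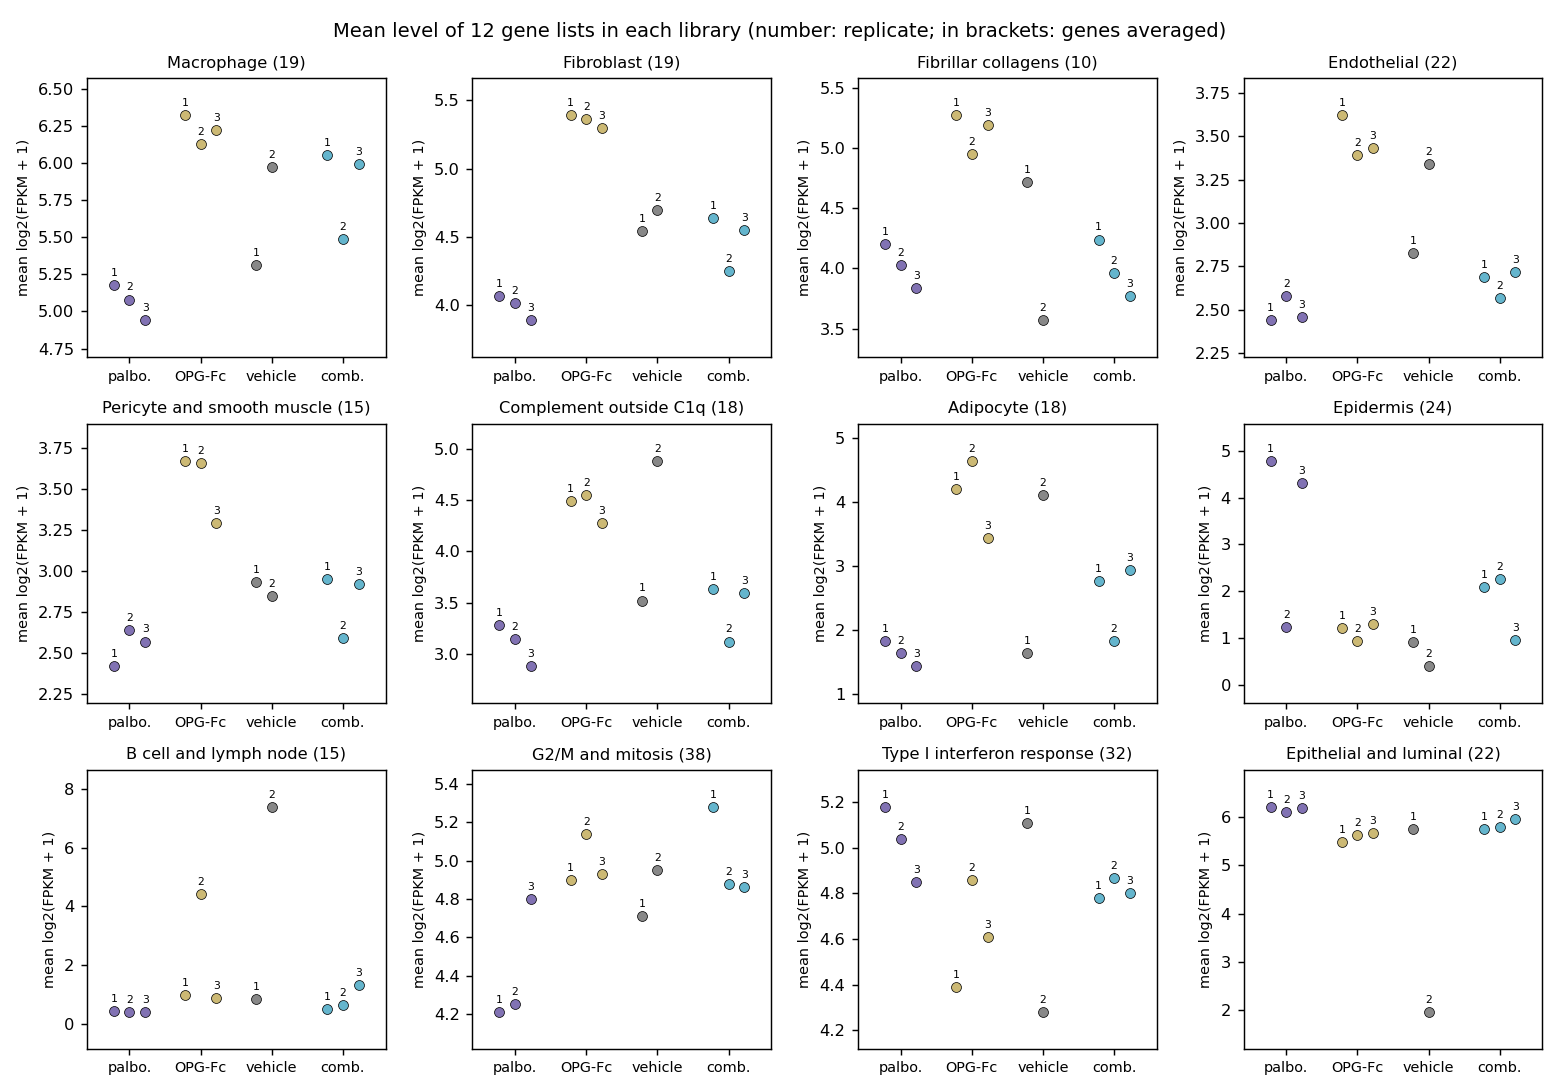
Each panel shows 1 of 12 gene lists, with the mean log2(FPKM + 1) of its members on the vertical axis, 1 point per tumour and its replicate number above it, for palbociclib (palbo.), OPG-Fc, vehicle and the combination (comb.). Macrophage, fibroblast, collagen, vessel, complement and fat lists lie lower in all 3 palbociclib tumours than in all 3 OPG-Fc tumours, while the epidermis list is high in palbociclib 1 and 3 only among those 6.

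Fat markers had the most negative median difference of the 47 lists. All 16 tested adipocyte markers were lower in the palbociclib tumours, 15 of them called, with a median of -3.03. Fabp4, a fatty acid carrier, was at 59.0, 63.3 and 44.2 FPKM with palbociclib and at 671, 1141 and 428 with OPG-Fc (-3.63 ± 0.32, adjusted p = 0.000733). Lpl, which frees fatty acids from lipoproteins, was at 3.20, 2.53 and 2.65 against 47.0, 44.9 and 22.3 (-3.30 ± 0.26, adjusted p = 0.000666). Cfd, the fat-derived protease adipsin, was at 35.0, 19.2 and 12.4 against 582, 1116 and 284 (-4.74 ± 0.51, adjusted p = 0.00127). For each, OPG-Fc replicate 2 or 1 was the highest and replicate 3 the lowest of the OPG-Fc group. Summed over 18 fat markers, FPKM ranged from 80.3 to 134 with palbociclib and from 988 to 3150 with OPG-Fc, and none of the 18 was listed at 0 in any library. It was 115 in vehicle replicate 1, within the palbociclib range, and 465, 142 and 837 with both drugs. Other lipid genes followed in part. Of 19 genes of fatty acid and glycerolipid synthesis 7 were lower, including Scd1, the stearoyl-CoA desaturase, at 44.1, 17.4 and 33.3 against 319, 434 and 161 (-3.21 ± 0.41, adjusted p = 0.00261). Scd2, its relative outside fat, was at 179, 129 and 197 against 141, 154 and 174 (adjusted p = 0.786). Of 15 genes of lipolysis and fatty acid oxidation 5 were lower, among them the lipases Lipe, Mgll and Pnpla2, and Acadl, a mitochondrial dehydrogenase, was higher at 165, 148 and 152 against 112, 103 and 103 (0.54 ± 0.10, adjusted p = 0.0102). Sterol synthesis genes were not called in either direction by limma (0 of 23, 1 at an unadjusted p under 0.05). The synthesis calls ranged from 3 (without palbociclib replicate 1) to 11 (without OPG-Fc replicate 3). With palbociclib replicate 1, 2 or 3 or OPG-Fc replicate 1 left out, 3 lipolysis genes were called lower.

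On the side higher with palbociclib, 11 of 22 epithelial markers were called and none lower, with a median of 0.61. Spint1, a membrane inhibitor of matriptase-type proteases, was at 53.1, 48.5 and 50.4 FPKM with palbociclib and at 30.3, 29.8 and 32.6 with OPG-Fc (0.70 ± 0.09, adjusted p = 0.00304). Elf3, an epithelial transcription factor, was at 26.5, 36.6 and 28.3 against 13.6, 16.6 and 18.4 (0.87 ± 0.16, adjusted p = 0.0106). Epcam was at 604, 498 and 546 against 336, 358 and 442 (0.54 ± 0.14, adjusted p = 0.0458). None of these groups overlapped, whereas the keratin Krt7 was at 351, 498 and 312 against 369, 441 and 376 (-0.06 ± 0.18, adjusted p = 0.877). Leaving out 1 library gave 5 (without palbociclib replicate 1 or 3) to 12 epithelial calls. FPKM is a share of each library, so a lower stromal share and a higher epithelial share are not separate measurements.

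Genes induced by type I interferon were higher with palbociclib: 30 of 32 differences were positive, 7 were called higher and 1 lower, with a median of 0.48. Promoters of 3 of the called genes are shown as above, because they hold the pattern GAAA, any 2 bases, GAAA found in interferon-stimulated response elements. They are Oas1a at chr5:120907526-120907675 (minus strand), Oas3 at chr5:120777660-120777809 (minus) and Ifit1 at chr19:34640739-34640888 (plus), with the pattern in capitals on either strand. In Oas1a the 2 matches overlap each other.
Oas1a: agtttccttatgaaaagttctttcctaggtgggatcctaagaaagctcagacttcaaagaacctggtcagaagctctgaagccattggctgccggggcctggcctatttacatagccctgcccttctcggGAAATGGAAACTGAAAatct
Oas3: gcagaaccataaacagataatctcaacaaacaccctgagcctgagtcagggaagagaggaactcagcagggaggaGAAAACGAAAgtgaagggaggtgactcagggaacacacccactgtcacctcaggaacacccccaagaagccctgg
Ifit1: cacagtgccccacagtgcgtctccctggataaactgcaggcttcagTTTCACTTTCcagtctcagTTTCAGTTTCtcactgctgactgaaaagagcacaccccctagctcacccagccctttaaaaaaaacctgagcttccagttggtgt

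The pattern lay in the window of 8 of 23 interferon genes with a promoter in the table (34.8%) and of 191 of the 10134 genes tested (1.88%). Among called interferon genes with a promoter it lay in 3 of 5, the 3 shown. Oas1a, an enzyme that makes the activator of RNase L, was at 61.0, 66.9 and 58.9 FPKM with palbociclib and at 31.2, 40.3 and 37.5 with OPG-Fc (0.77 ± 0.12, adjusted p = 0.00589). Oas3, of the same family, was at 13.6, 8.98 and 10.2 against 4.09, 6.93 and 5.73 (0.86 ± 0.20, adjusted p = 0.0314). Ifit1, which binds foreign 5′ RNA ends, was at 13.4, 8.69 and 10.4 against 4.93, 7.34 and 5.10 (0.80 ± 0.19, adjusted p = 0.0335). Ifi44, an interferon-induced protein, had the smallest p of the list, at 38.0, 42.4 and 39.1 against 23.2, 21.9 and 23.01 (0.79 ± 0.09, adjusted p = 0.00194). The groups did not overlap for these 4 genes, and OPG-Fc replicate 1 was the lowest of the 6 for Oas1a, Oas3 and Ifit1. Usp18, Rtp4 and Herc6 were the other higher calls. Ifi27l2a, a membrane protein of the mitochondria, went the other way at 47.8, 79.1 and 34.5 against 241, 357 and 147 (-2.18 ± 0.37, adjusted p = 0.00832). In vehicle replicate 1 Ifi44 was at 56.0, above all 6 libraries of the comparison. Higher calls numbered 2 without palbociclib replicate 1, OPG-Fc replicate 1 or OPG-Fc replicate 3, and 11 without OPG-Fc replicate 2. They numbered 20 with the length and GC correction, 17 with array weights, 11 with quantile normalization and 4 with no filter. MHC class I presentation genes, also interferon targets, were positive in 14 of 15 cases (median 0.32) but overlapped between groups in all 15, and limma called none, with none at an unadjusted p under 0.05. B2m, the light chain, was at 3360.0, 3040.4 and 2677 against 1973, 2933 and 2295 (adjusted p = 0.283).

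Genes of hypoxia and glycolysis were also higher, 6 of 25, with a median of 0.38. Promoters of 2 of the 6 are shown for ACGTG, the core that hypoxia-inducible factors bind, in capitals on either strand. The same letters form part of the E-box that Myc and other factors bind. They are Pgk1 at chrX:106186950-106187099 and Slc2a1 at chr4:119108595-119108744, both on the plus strand.
Pgk1: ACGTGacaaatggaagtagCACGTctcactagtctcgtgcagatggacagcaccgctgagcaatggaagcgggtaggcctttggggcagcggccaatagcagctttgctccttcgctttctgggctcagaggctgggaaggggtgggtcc
Slc2a1: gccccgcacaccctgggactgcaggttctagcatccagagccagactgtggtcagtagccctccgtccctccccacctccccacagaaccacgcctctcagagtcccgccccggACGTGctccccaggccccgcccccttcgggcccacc

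The core lay in the window of 13 of 24 hypoxia genes (54.2%) and of 1723 of the 10134 genes tested (17.0%). Among called hypoxia genes with a promoter it lay in 2 of 5, the 2 shown. Pgk1, the glycolytic phosphoglycerate kinase, was at 640.2, 750.3 and 740.2 FPKM with palbociclib and at 473, 541 and 512 with OPG-Fc (0.48 ± 0.12, adjusted p = 0.0399). Slc2a1, the glucose transporter GLUT1, was at 121, 162 and 135 against 106, 88.5 and 96.1 (0.51 ± 0.13, adjusted p = 0.0435). Ndrg1, a gene induced by low oxygen, was at 397, 408 and 427 against 254, 226 and 238 (0.78 ± 0.10, adjusted p = 0.00272). Egln3, a prolyl hydroxylase that marks hypoxia-inducible factors for decay, was at 91.1, 112 and 135 against 57.3, 61.8 and 76.8 (0.77 ± 0.17, adjusted p = 0.0244). No group overlapped for these 4 genes. Vehicle replicate 1, at 455 for Ndrg1 and 139 for Egln3, lay above the palbociclib tumours. The lactate exporter Slc16a3 was at 15.6, 22.5 and 15.4 against 23.4, 22.3 and 22.5 and was not called (-0.35 ± 0.15, adjusted p = 0.181). Calls numbered 3 without palbociclib replicate 2 or OPG-Fc replicate 2, 2 without palbociclib replicate 3 or OPG-Fc replicate 3, and 1 without OPG-Fc replicate 1. They numbered 13 with the length and GC correction and 14 with array weights.

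All 79 cytosolic ribosomal protein genes had a positive difference, with a median of 0.52, and 71 of them did not overlap between groups, yet 6 were called. Over all genes tested 11.5% were higher with palbociclib without overlap, and 1.81% were called higher. Rpl22 was at 246, 319.7 and 245 FPKM with palbociclib and at 157, 171 and 193 with OPG-Fc (0.63 ± 0.14, adjusted p = 0.0257). Rps28 was at 2959.6, 4344 and 3047 against 2004, 1821 and 2249 (0.75 ± 0.19, adjusted p = 0.0426). Together ribosomal protein genes held 28.1% to 33.5% of summed FPKM with palbociclib, most in replicate 2, and 21% to 24.2% with OPG-Fc. Under quantile normalization the median of the 79 was 0.13. The calls numbered 25 with the length and GC correction, 26 with array weights, 14 with the replicate number as a block, 1 with no filter, 2 in the fits of 10 and of 9 libraries and 1 with OPG-Fc replicates 2 and 3 averaged. They numbered 1, 3 and 0 without palbociclib replicates 1, 2 and 3, and 0, 0 and 2 without OPG-Fc replicates 1, 2 and 3. Medians were 0.14 for 58 mitochondrial ribosomal proteins, 0.11 for 75 respiratory chain subunits and 0.13 for 31 proteasome subunits, with no call by limma and with 7, 3 and 1 genes at an unadjusted p under 0.05. Myc was at 89.6, 73.2 and 104 against 62.2, 64.6 and 66.1 without overlap and was not called (0.45 ± 0.14, adjusted p = 0.075).

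**Figure D4:**
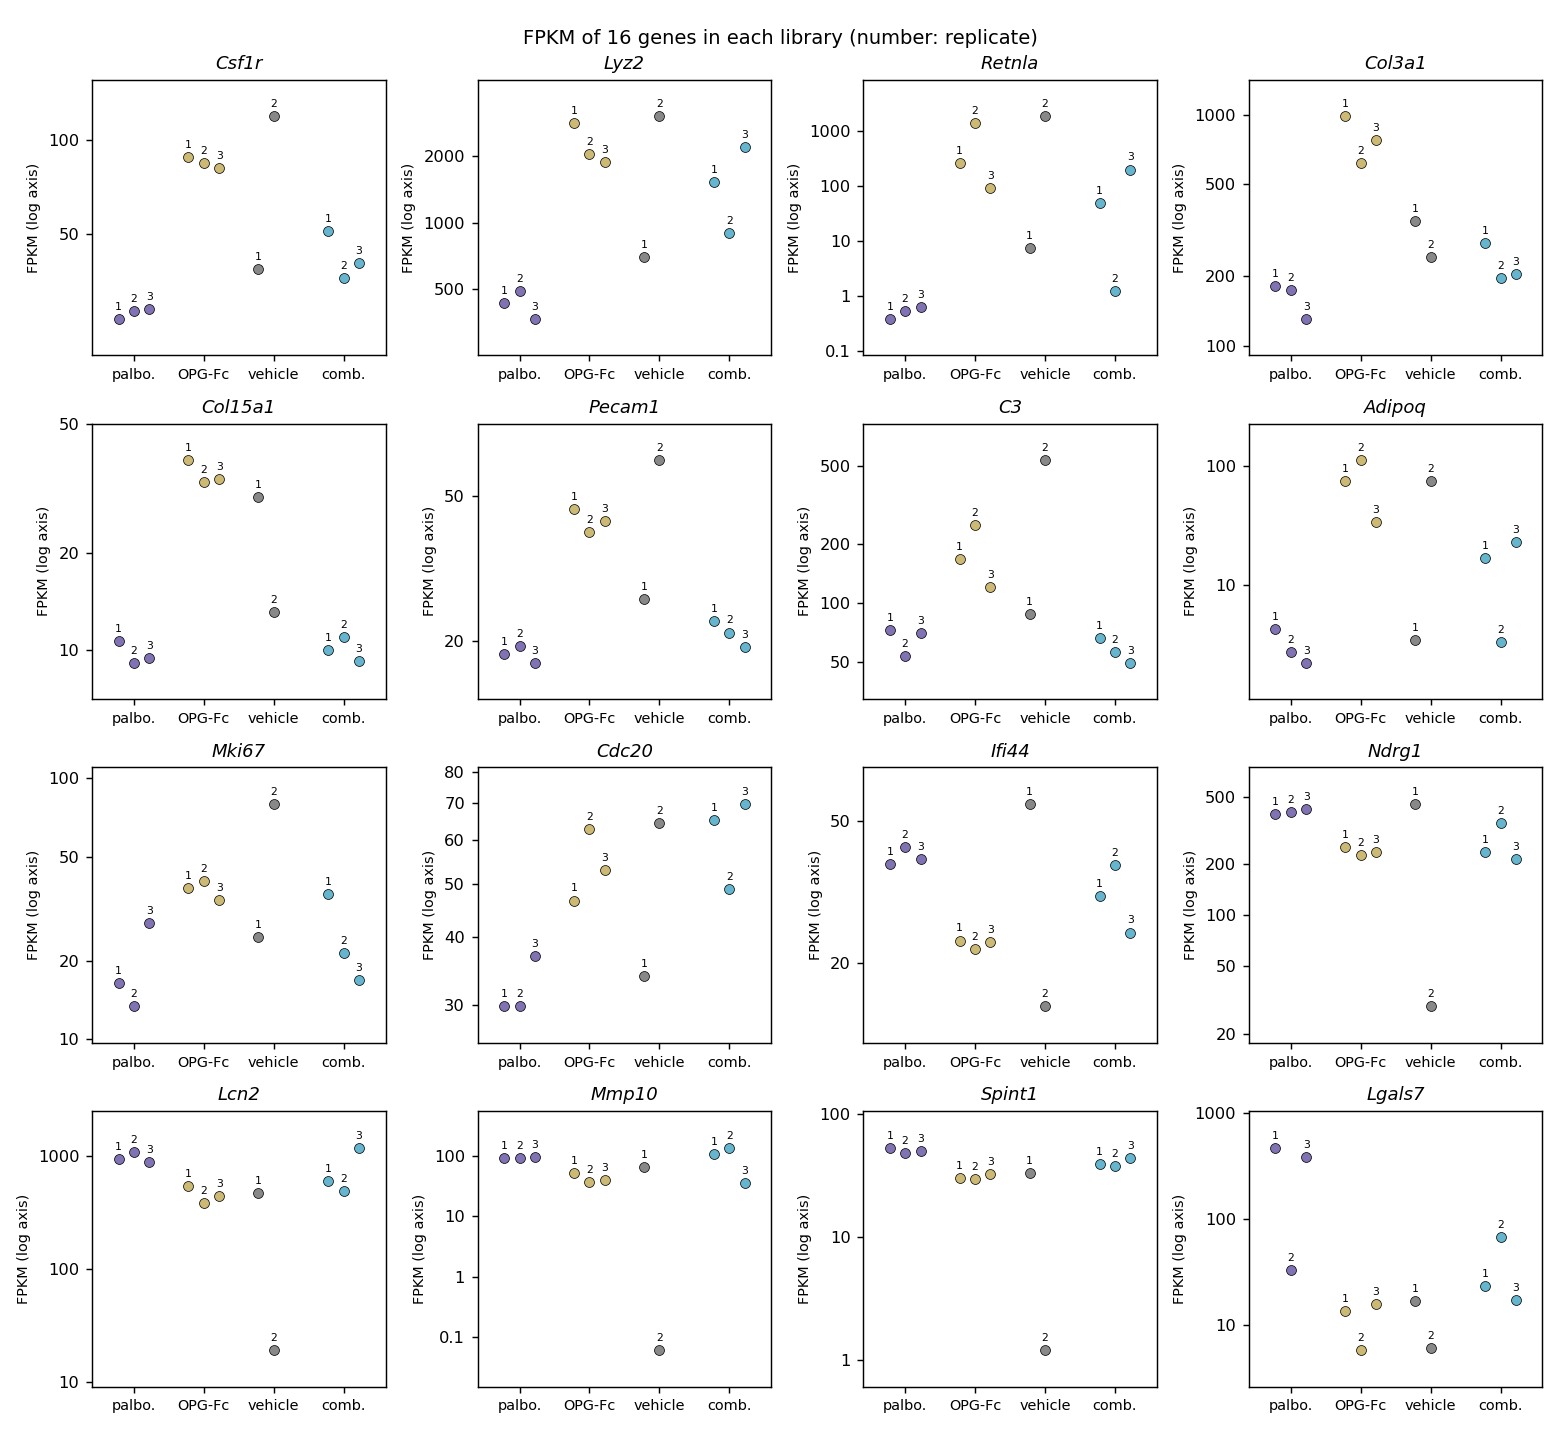
Each panel shows FPKM of 1 of 16 genes on a log axis, 1 point per tumour with its replicate number, for palbociclib (palbo.), OPG-Fc, vehicle and the combination (comb.). Csf1r, Col15a1 and Pecam1 form tight separate groups with palbociclib below OPG-Fc, Ifi44, Ndrg1 and Spint1 the reverse, and vehicle 2 lies far from vehicle 1 for most genes.

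Epidermis markers were, in sum, high in palbociclib replicates 1 and 3 and low in replicate 2. Of the 53 genes with a log2 difference of at least 2, the epidermis and hair follicle lists held 13. All 22 tested epidermis markers had a positive difference, with a median of 2.16, and 3 were called. Lgals7, galectin 7 of stratified epithelia, was at 470.0, 33.0 and 386 FPKM with palbociclib and at 13.5, 5.71 and 15.8 with OPG-Fc (3.96 ± 0.92, adjusted p = 0.0301). Trp63, the p63 factor of basal keratinocytes, was at 6.43, 1.59 and 5.94 against 1.10, 0.43 and 0.58 (1.60 ± 0.39, adjusted p = 0.036), and Ivl, involucrin of the cornified envelope, at 3.94, 0.78 and 1.79 against 0.05, 0.18 and 0.29 (adjusted p = 0.0466). Palbociclib replicate 2 was the lowest of its group for each of the 3 but above every OPG-Fc library. Krt10 itself was not called (3.45 ± 1.23, adjusted p = 0.119). Summed over 24 epidermis markers, FPKM was 2160.0, 208 and 1840.0 with palbociclib and 165, 144 and 164 with OPG-Fc, and 3 of the 24 were at 0 in palbociclib replicate 2, against 0 in replicates 1 and 3 and 1 to 7 in the OPG-Fc libraries. The 3 calls were lost when any 1 of the other 5 libraries was left out, with no filter and with OPG-Fc replicates 2 and 3 averaged, each giving 0. Array weights gave 22, the robust variance prior 1, the filter at 5 FPKM 1 and the replicate block 5. Without palbociclib replicate 2 all 22 were called, and from that replicate alone against the 3 OPG-Fc libraries the median was 0.12. Other genes among the highest calls were also highest in palbociclib replicates 1 and 3: Mcpt1 and Mcpt2, proteases of mucosal mast cells, Acpp and Bnipl. Mcpt2 was at 27.0, 9.69 and 32.7 against 6.30, 1.13 and 2.29 (2.54 ± 0.53, adjusted p = 0.0198). The mast cell list summed to 72, 24.1 and 60.6 FPKM with palbociclib and to 47.3, 30.5 and 42.4 with OPG-Fc. Limma called 0 of its 8 tested genes (2 at an unadjusted p under 0.05), with a median of 0.16, and 3 were called higher without palbociclib replicate 2. S100a14, an epithelial calcium-binding protein among the 12 highest, had nearly equal palbociclib values, at 93.5, 98.1 and 93.1 against 23.9, 32.5 and 57.2 (1.39 ± 0.27, adjusted p = 0.0145). The part of skin carried with the tumour in the higher calls was not tested beyond these values.

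Lymphoid transcripts were most abundant in OPG-Fc replicate 2. Of 5 tested genes of B cells and lymph node 2 were lower with palbociclib. Jchain, which joins secreted antibodies, was at 0.04, 0.09 and 0.15 FPKM with palbociclib and at 13.3, 476 and 11.7 with OPG-Fc (adjusted p = 0.0289), and Cxcl13, a follicle chemokine, at 1.42, 1.83 and 1.08 against 5.79, 25.9 and 6.43 (-2.19 ± 0.48, adjusted p = 0.0239). Jchain was above 11 in all OPG-Fc tumours and 9.19 in vehicle replicate 1. Summed over 15 markers the list held 9.58 to 11.6 FPKM with palbociclib and 31.1, 1020.0 and 25.2 with OPG-Fc. Calls numbered 0 without palbociclib replicate 1 or 3, with no filter and with the robust variance prior, and 1 without palbociclib replicate 2. Of 17 T and NK cell genes limma called none, and 3 had an unadjusted p under 0.05; Cd2 was at 2.39, 2.49 and 1.49 against 3.29, 24.9 and 6.10 (adjusted p = 0.124). Skeletal muscle and red cell genes varied within both groups and none was called, with 2 of 17 and 4 of 5 at an unadjusted p under 0.05. Mb, myoglobin, was at 14.1, 20.6 and 10.5 against 2.21, 2.34 and 10.8, and Hba-a1, an alpha globin, at 23.4, 144 and 35.0 against 89.3, 222 and 186.

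Secreted factors often listed for senescent cells, a state that CDK4/6 inhibitors can induce, did not move one way. Of 31 tested 2 were higher with palbociclib and 6 lower, with a median of -0.12. Il1a, an alarm cytokine, was higher along with Mmp10, at 26, 50.4 and 51.2 FPKM against 23.3, 17.7 and 20.6 (0.96 ± 0.25, adjusted p = 0.0469). Higher calls in this list numbered 1 without palbociclib replicate 2 or 3, or OPG-Fc replicate 2 or 3. They numbered 1 under quantile normalization and 0 in the fits of 10 and of 9 libraries, against 4 with array weights. Cxcl12, a stromal chemokine, was at 7.97, 11.7 and 5.99 against 108, 56.3 and 56.7 (-2.94 ± 0.30, adjusted p = 0.0011), and Igfbp5, Icam1, Tgfb1 and Timp1 were also among the lower calls, several of which stromal cells also express. Of 20 p53 targets 1 was called in each direction. Perp, a desmosome-associated p53 target, was higher at 248, 159 and 244 against 85.3, 98.5 and 120.4 (1.07 ± 0.20, adjusted p = 0.0121), and Sesn1, a stress sensor, was lower at 8.23, 6.18 and 9.60 against 17.1, 15.4 and 14.8 (-0.91 ± 0.16, adjusted p = 0.00869). The Perp call was lost without palbociclib replicate 3. Palbociclib replicate 2 was the lowest of its group for Perp, as for the called epidermis markers, and a part of skin in its values was not tested. Chaperones of the endoplasmic reticulum included 2 lower calls of 21, Dnajb11 and Hsp90b1, and heat shock genes none of 14 by limma, with 2 at an unadjusted p under 0.05. Among all genes tested 9.52% were called lower and 1.81% higher. The lower calls in the endoplasmic reticulum list numbered 0 with median-of-ratios scaling. They also numbered 0 without palbociclib replicate 1 or 3, or OPG-Fc replicate 1 or 2.

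The vehicle and combination tumours, which the calls did not use, were placed against the 2 drugs. For the 1213 genes called lower with palbociclib, vehicle replicate 1 was nearer to the palbociclib mean for 858 (70.7%), and it was between the group means for 985. Vehicle replicate 2 was nearer the palbociclib mean for 241 of the lower calls (19.9%) and 6 of the higher (2.6%). Among 15 called fat genes vehicle replicate 1 was nearer palbociclib for all 15, and among 16 macrophage genes for 12. Among 7 fibrillar collagens vehicle replicate 1 was nearer palbociclib for 2, and for none of the 4 called basement membrane genes. Col15a1, for example, was at 29.7 FPKM in vehicle replicate 1, near the OPG-Fc tumours. For the 230 genes called higher, vehicle replicate 1 was nearer palbociclib for 74 (32.2%), including all 7 interferon and all 6 hypoxia genes, but for 1 of 11 epithelial genes. The mean of the 3 combination tumours was nearer palbociclib for 767 of the lower calls (63.2%) and 155 of the higher (67.4%). By group this held for 7 of 7 fibrillar collagens, 16 of 18 endothelial genes and 13 of 15 fat genes, and for 5 of 16 macrophage and 2 of 11 mitotic genes. These are positions without a test.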

How the data were processed

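Per the labels' protocols, poly(A) RNA from tumours kept in RNAlater was made into circular single-stranded DNA libraries and sequenced. The submitters' processing notes name HISAT, Bowtie2 and RSEM, without versions or roles, and GRCm39 and mm39 as builds. FPKM values were deposited by the authors to 2 decimals, 1 column per tumour, in a table of 17181 genes. Depth is unknown, since rounding to 0.01 sets the low values, and the number of libraries limits precision.

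Values were taken as log2(FPKM + 1) for genes with FPKM of at least 1 in at least 2 of the 6 libraries. Differences between the 2 groups came from limma 3.58.1 (trend = TRUE, no covariate) under R 4.3.3. Two-sided p-values were Benjamini-Hochberg adjusted over all 12737 genes and called under 0.05, and errors are standard errors. The fit was tested on simulated data. Groups came from the sample titles. The comparison, the 47 gene lists (954 symbols tested) and the naming rule were chosen with earlier results of these data known, so lists are described by counts and medians only. The rule names up to 12 genes called with the largest difference in each direction, a panel of 12 RANK and CDK4/6 pathway genes, the 3 tissue check genes and, per list, up to 5 genes with the smallest p plus 1 in the opposite direction, and passes over predicted gene models. Other members are named where a count is spelled out, after their values were seen.

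A GENCODE annotation of the build GRCm38 gave transcript length and GC content by symbol, for 97.6% of genes tested. Promoters came from RefSeq (GRCm38.p6). No coordinates of the authors' build are given. No 2 libraries were identical, and the highest correlation within a group was 0.9884. Plots were made using Python 3.11.15 and matplotlib 3.10.9. Alternatives were another pseudocount, filter, scaling, variance prior, weights, sets of libraries, a replicate block and a length and GC correction. Vehicle and combination libraries were left out of the comparison. Some genes are not reported here.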

Additional observations from a re-analysis of the deposited data

How the results depend on the processing

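Of 987 list medians over 47 lists and 21 alternatives, 942 moved by less than the spread between libraries. The median, rounded to 2 decimals, kept its sign under every alternative for 38 of the 47 lists. Reversals by at least that spread numbered 4. Of 149 named genes that were called, 0 reversed under any alternative, all of which reuse these libraries. The call was lost for 120 of them in the fit of all 11 libraries, and for 17 to 34 with 1 library left out. Genes called higher (230) and lower (1213) numbered as follows. Quantile normalization gave 393 higher, array weights 854, the correction for length and GC content 824, the average of OPG-Fc replicates 2 and 3, whose columns share a number of unknown meaning, 134, and the fits of 10 and of 9 libraries 153 each. The filter at an FPKM of 5 gave 771 lower, from fewer genes tested. All 11 libraries in the fit gave 1 and 131, and palbociclib replicate 2 alone against OPG-Fc, a fit that assumes the lone library varies like the others, gave 0 and 11. Leaving out 1 library gave 83 to 394 higher and 808 to 1078 lower. With the replicate number as a block there were 214 and 1006, although the numbers do not pair the samples: deviations of same-numbered tumours correlated at -0.03, 0.16 and -0.09, and not every tumour correlated best with its own number.

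List medians moved as follows. The RANK list reversed to 0.01 with median-of-ratios scaling, 0.02 with quantile normalization and 0.07 with the length and GC correction. Quantile normalization gave -0.29 for osteoclast-type genes, 0.13 for ribosomal proteins, -0.33 for basement membrane, -0.5 for Wnt antagonists and -0.82 for endothelium. The length and GC correction gave -0.25 for osteoclast-type genes, 0.47 for hypoxia, -1.04 for other collagens, -0.32 for basement membrane, -0.07 for TGF-beta genes and -0.88 for endothelium. Array weights gave -0.08 for TGF-beta genes, 0.46 for epithelium, -2.12 for fat and -0.88 for pericytes. The pseudocount of 0.1 gave -1.07 for Wnt antagonists, -3.65 for fat and -1.3 for endothelium. No filter gave -0.5 for Wnt antagonists, 0.03 for hair follicle and -2.45 for fat. The filter at 5 gave -0.09 for TGF-beta genes and -1.54 for Wnt antagonists, and median-of-ratios scaling gave -0.1 for TGF-beta genes. With palbociclib replicate 2 alone the mast cell list reversed to -0.66, and values were -0.27 for the CDK4/6-RB list, -0.14 for RANK, 0.84 for cytosolic and 0.26 for mitochondrial ribosomal proteins, 0.28 for the respiratory chain, 0.49 for hypoxia, -0.37 for sterols, -0.83 for basement membrane, -0.25 for TGF-beta genes, 0.12 for epidermis, 0.1 for hair follicle, -0.92 for pericytes and -0.1 for red cells. Leaving out 1 library moved the TGF-beta median between -0.26 and -0.17, the epithelial median between 0.49 and 0.66 and the hair follicle median between 1.65 and 3.47. Apart from changes in genes or libraries used, the cause was not tested. FPKM near 0 limits the low genes, whose differences depend on the pseudocount.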
